A study of Mus musculus with 4 samples.

Results

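A set of 10 genes that control the passage of a mouse cell from G1 into S phase were followed across the 4 RNA-seq samples of the series. They are the D-type cyclin genes Ccnd1, Ccnd2 and Ccnd3, the E-type cyclin genes Ccne1 and Ccne2, the Cip/Kip inhibitor genes Cdkn1a and Cdkn1b, and the INK4 inhibitor genes Cdkn2a, Cdkn2b and Cdkn2c. The genes were chosen by name and not by a limit on measured values, though with earlier results of these data known. They make up 10 of the 37620 genes in the count tables. All 10 had at least 1 count per 1000000 counts (CPM) in at least 1 sample, a limit that 14263 genes passed.

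R1 mouse embryonic stem cells (mESCs), an established line, gave 3 samples, each kept for 2 days in serum-containing medium without feeder cells. The sample called 2i−L received CHIR99021 at 3 μM, an inhibitor of the kinase GSK3, and PD0325901 at 1 μM, an inhibitor of the kinase MEK. The label of that sample reads 2i and does not mention the cytokine LIF. The absence of LIF was taken from the study's name for the condition, and each comparison with 2i−L rests on that reading. The 2iJ sample received both of these and a JAK inhibitor at 2.0 μM. In 2iJ+B−A the same 3 inhibitors were combined with the growth factor BMP4 at 10 ng/ml and ALK5 inhibitor II at 10 μM. ALK5 is the type I receptor of TGFβ, and the study used the inhibitor against Activin A and Nodal signalling, the −A of the name. The 3 mESC samples therefore shared GSK3 and MEK inhibition, and 2 of them also JAK inhibition. The fourth sample was the F4 trophoblast stem cell line (TSC), labelled day 2, a different line in a medium of its own, so that line, culture and cell type cannot be told apart in any comparison with it. Each condition was a single library with no replicate. No test between conditions was possible, and differences are given as log2 ratios of CPM plus 0.5, with 95% intervals that cover counting error only and not the spread between cultures. Fold values given beside a log2 ratio are plain ratios of CPM without the 0.5, and the intervals do not apply to them.

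Counts on genes ranged from 33913984 to 36964392 per library, and a gene with 3 counts, taken as the limit of detection, stood at 0.0799 to 0.0902 CPM. Markers of pluripotent cells (6 genes) summed to 4576, 4080, 2488 and 286.9 CPM in 2i−L, 2iJ, 2iJ+B−A and TSC. Their defining member Pou5f1 stood at 658.0 to 899.3 CPM in the mESC samples and at 1.34 CPM in TSC. The trophoblast stem cell gene Elf5 was at 298.3 CPM in TSC and at most 0.133 CPM in mESCs, so both labels matched these 2 genes. In TSC against 2iJ, 6 of 6 pluripotent markers were at least 2-fold lower and 6 of 8 trophoblast stem cell markers higher. Among all genes, 17.6% were lower and 19.4% higher. Sox2 and Zfp42 still had 153.6 and 122.9 CPM in TSC. Esrrb, from the trophoblast stem cell list, was lower in TSC (247.6 CPM) than in each mESC sample (302.3 to 578.3 CPM). The 8 markers of fibroblasts, a cell type used as feeders, summed to 31.5 to 39.5 CPM in mESCs and 8.55 CPM in TSC, where Col1a2, Dcn and Lum had no count. In these bulk samples, fewer cells that use a gene and less of its RNA per cell cannot be told apart.

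In G1, D-type cyclins respond to growth signals and switch on the kinases CDK4 and CDK6, which begin to phosphorylate the retinoblastoma protein and its relatives. E-type cyclins with CDK2 complete that step and free E2F factors to transcribe the genes of DNA replication. INK4 proteins bind CDK4 and CDK6 and keep D-type cyclins away, while Cip/Kip proteins bind whole cyclin–CDK complexes, above all those with CDK2. Embryonic stem cells are known for a short G1, abundant cyclin E and little use of INK4 inhibitors.

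Cdkn2a and Cdkn2b lie side by side on chromosome 4, and Cdkn2a has 2 promoters. The distal promoter starts the transcript of p19Arf, a protein that stabilises p53 by binding MDM2, and the proximal promoter starts that of p16Ink4a, the CDK4 and CDK6 inhibitor. The counts pool every Cdkn2a transcript and cannot divide the gene between these products. The 250 bases before each of the 3 starts are shown because they are separate control regions of the neighbouring Cdkn2a and Cdkn2b genes. They are from RefSeq in build GRCm38.p6, a different build from that of the counts, and are written 5′ to 3′ on the minus strand, with capitals marking a motif match.

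Cdkn2a distal start, chr4:89294620-89294869: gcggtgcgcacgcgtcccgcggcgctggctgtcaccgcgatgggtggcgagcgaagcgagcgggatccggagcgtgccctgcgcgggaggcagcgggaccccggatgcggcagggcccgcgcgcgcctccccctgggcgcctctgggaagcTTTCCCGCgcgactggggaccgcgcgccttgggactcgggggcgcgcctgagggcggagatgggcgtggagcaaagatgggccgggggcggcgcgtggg
Cdkn2a proximal start, chr4:89282193-89282442: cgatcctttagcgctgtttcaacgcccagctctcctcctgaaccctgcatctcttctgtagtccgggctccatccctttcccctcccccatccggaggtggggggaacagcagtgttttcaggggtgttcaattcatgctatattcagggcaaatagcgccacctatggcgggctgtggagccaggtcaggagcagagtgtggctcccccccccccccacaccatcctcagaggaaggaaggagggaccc
Cdkn2b start, chr4:89311033-89311282: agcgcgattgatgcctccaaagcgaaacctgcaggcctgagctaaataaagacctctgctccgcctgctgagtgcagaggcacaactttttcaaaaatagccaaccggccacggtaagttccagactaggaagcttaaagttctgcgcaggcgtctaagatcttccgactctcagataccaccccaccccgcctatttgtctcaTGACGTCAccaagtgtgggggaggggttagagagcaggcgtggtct

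The motifs searched, on both strands, were these 5: E2F (TTTCCCGC, TTTGGCGC, TTTGCCGC or TTTCGCGC), E-box (CACGTG), CRE (TGACGTCA), STAT (TTCNNNGAA) and TCF/LEF (CTTTGAT). The distal Cdkn2a window held 1 E2F match, 99 to 92 bases before the start, and the Cdkn2b window held 1 CRE match, 46 to 39 bases before it. The proximal Cdkn2a window held none of the 5 motifs. Promoters were listed for 7 of the 10 genes, as 11 windows, and the remaining 8 windows also held none. Among all 32851 mouse promoter windows, 1.86% held the E2F motif, 6.02% the E-box, 1.55% the CRE, 7.02% the STAT motif and 3.21% the TCF/LEF motif. No promoter was listed for Ccnd1, Ccnd2 or Ccne2.

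The widest differences between samples belonged to Ccnd2 and Ccnd1, and the narrowest to Cdkn1b. The log2 range over the 4 samples was 4.15 for Ccnd2 and 3.15 for Ccnd1, wider than that of 96.7% and 92.3% of the genes tested. For Cdkn1b the range was 0.14, and 1.92% of genes had a smaller one. The other 7 genes ranged from 0.51 for Cdkn1a to 1.59 for Cdkn2a, against a median of 0.93 over all genes tested.

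**Figure D1:**
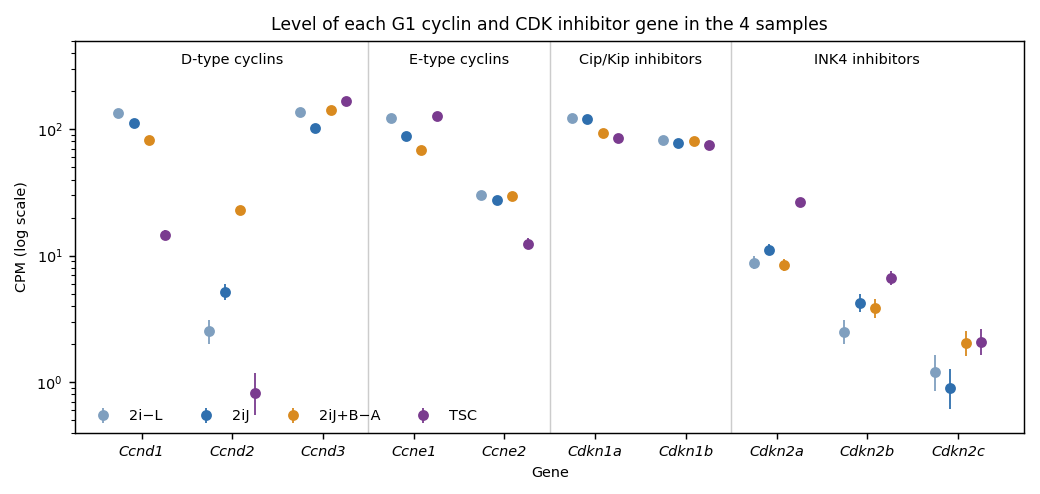
CPM of the 10 genes on a log scale (vertical axis) in 2i−L, 2iJ, 2iJ+B−A and TSC; points are single libraries and bars are 95% Poisson intervals of the count. Ccnd2 was highest in 2iJ+B−A at 23.1 CPM and lowest in TSC at 0.826 CPM, Ccnd1 was lowest in TSC at 14.6 CPM, and Cdkn1b stayed between 74.9 and 82.8 CPM.

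Ccnd1 (ENSMUSG00000070348, NCBIM37 chr7:152115836-152125774, minus strand) encodes cyclin D1, the D-type cyclin best known as a target of growth factor signalling. Its level was 133.9 CPM for 2i−L, 112.8 for 2iJ, 82.8 for 2iJ+B−A and 14.6 for TSC. Each step in that order exceeded counting error, since the 4 intervals did not overlap. The log2 ratio was −0.25 for 2iJ against 2i−L (interval −0.31 to −0.18) and −0.44 for 2iJ+B−A against 2iJ (interval −0.51 to −0.38). TSC stood apart from all mESC samples, with a log2 ratio of −2.90 against 2iJ (interval −3.03 to −2.77), or 7.70-fold lower, and −2.46 against 2iJ+B−A, or 5.65-fold lower. The exons of Ccnd1 share 818 bases with Oraov1 on the opposite strand. The stranded counts used here separate them, and opposite-strand counts made up 0.669% to 5.86% of all counts at Ccnd1, highest in TSC.

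Ccnd2 (ENSMUSG00000000184, NCBIM37 chr6:127075797-127101066, minus strand) encodes cyclin D2. It had 84 counts for 2i−L, 178 for 2iJ, 866 for 2iJ+B−A and 29 for TSC, or 2.53, 5.18, 23.1 and 0.826 CPM. The 4 intervals did not overlap, so the mESC samples ranked 2iJ+B−A, 2iJ and 2i−L, with TSC below them all. In 2iJ+B−A the log2 ratio to 2iJ was 2.05 (interval 1.83 to 2.27), a 4.45-fold difference that 1.30% of genes tested exceeded in size. Against 2i−L, the log2 ratio of 2iJ+B−A was 2.96 (interval 2.68 to 3.24), or 9.13-fold. Between 2iJ and 2i−L it was 0.91 (interval 0.58 to 1.24), under the 2-fold limit on this scale although the CPM ratio was 2.05. TSC had 27.9-fold less Ccnd2 than 2iJ+B−A (log2 ratio −4.15, interval −4.49 to −3.79) and 6.28-fold less than 2iJ (log2 ratio −2.10, interval −2.48 to −1.70).

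Trophoblast markers did not move in 1 direction between the mESC samples. Cdx2, which marks trophoblast stem cells, stood at 2.62, 6.70 and 33.6 CPM in 2i−L, 2iJ and 2iJ+B−A, and Gcm1, which marks syncytiotrophoblast precursors, at 1.44, 5.62 and 28.0 CPM. Eomes and Sox3, from the same stem cell list as Cdx2, went the other way, with Eomes at 12.4, 10.7 and 2.74 CPM and Sox3 at 1.20, 1.25 and 0.319 CPM. Of the 8 stem cell markers, 2 were at least 2-fold higher and 2 lower in 2iJ+B−A than in 2iJ. Among all genes, 5.81% were higher and 3.17% lower. In TSC, where Ccnd2 was lowest, Cdx2 stood at 45.1 CPM and Gcm1 at 0.399 CPM. Over whole lists, the 8 trophoblast stem cell markers summed to 783.8, 660.8, 491.1 and 1280 CPM in the 4 samples, with Esrrb, which mESCs also use, the highest in the mESC samples. The 7 markers of differentiated trophoblast summed to 1.89, 5.82, 28.4 and 7.55 CPM, and Prl3d1, Prl2c2, Ctsq and Tpbpa had no count in any mESC sample. Whether the makeup of the cultures had a part in the Ccnd2 values was not tested.

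Ccnd3 (ENSMUSG00000034165, NCBIM37 chr17:47642000-47736632, plus strand), the gene of cyclin D3, was the D-type cyclin with the smallest range. Its level was 136.3 CPM for 2i−L, 102.9 for 2iJ, 140.8 for 2iJ+B−A and 167.3 for TSC. 2iJ was the lowest and TSC the highest, while 2i−L and 2iJ+B−A had overlapping intervals. Log2 ratios were −0.40 for 2iJ against 2i−L (interval −0.47 to −0.34), 0.45 for 2iJ+B−A against 2iJ (interval 0.39 to 0.51) and 0.70 for TSC against 2iJ (interval 0.64 to 0.76). The level of Ccnd3 is uncertain, because 86.65% of its transcript also aligned to chr4:138900315-138902142, where the best match was 95.5% identical and the pseudogene Ccnd3-ps is annotated. Read pairs that fit both places equally well are left out of the counts. Ccnd3-ps itself had 0, 2, 1 and 0 counts, and none of the other 9 genes had such a second match. Exons of Ccnd3 share 353 bases with Bysl on the opposite strand.

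Compared per kilobase of exon, the 3 D-type cyclins summed to 95.8, 76.0, 88.1 and 78.2 CPM per kilobase in 2i−L, 2iJ, 2iJ+B−A and TSC. Both the sum and its makeup depend on Ccnd3, whose level is uncertain as described. The sum stayed between 76.0 and 95.8 while its makeup differed. Ccnd1 gave 36.4%, 38.7%, 24.5% and 4.88% of it, Ccnd2 gave 0.462%, 1.20%, 4.59% and 0.185%, and Ccnd3 gave 63.1%, 60.1%, 70.9% and 94.9%. The per-length ratio of Ccnd2 to Ccnd1 was 0.0127 for 2i−L, 0.0309 for 2iJ, 0.187 for 2iJ+B−A (interval 0.174 to 0.202) and 0.0380 for TSC (interval 0.0252 to 0.0552). Ccnd2 therefore remained the minor D-type transcript in every sample, also where it was highest.

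**Figure D2:**
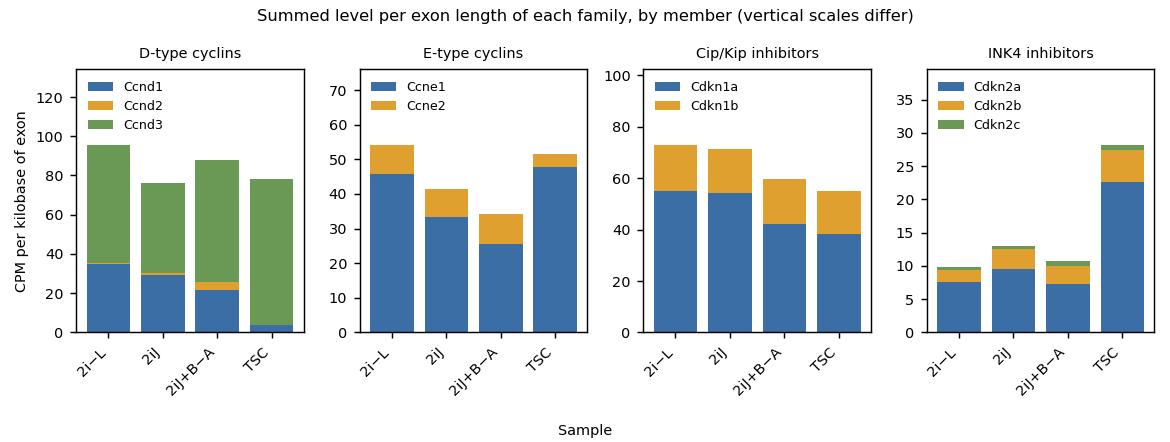
Stacked bars of CPM per kilobase of exon (vertical axis, from 0, a different scale in each panel) for each family in the 4 samples, coloured by gene; each bar is 1 library and has no error bar. The D-type total lies between 76.0 and 95.8 while Ccnd1 shrinks to 3.82 in TSC, but that total depends on the uncertain level of Ccnd3. The total of the 3 INK4 genes shown is highest in TSC at 28.2.

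Ccne1 (ENSMUSG00000002068, NCBIM37 chr7:38883003-38892553, minus strand) encodes cyclin E1, a partner of CDK2. It stood at 121.5 CPM for 2i−L, 89.1 for 2iJ, 68.2 for 2iJ+B−A and 127.4 for TSC. The level was lowest in 2iJ+B−A, and TSC exceeded 2i−L by 0.07 on the log2 scale (interval 0.01 to 0.13). On that scale the differences were also −0.45 for 2iJ against 2i−L (interval −0.51 to −0.38), −0.38 for 2iJ+B−A against 2iJ (interval −0.46 to −0.31) and 0.90 for TSC against 2iJ+B−A (interval 0.83 to 0.97). None of these passed 2-fold.

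Ccne2 (ENSMUSG00000028212, NCBIM37 chr4:11118498-11131926, plus strand), the gene of cyclin E2, had 30.2, 27.5 and 29.8 CPM in 2i−L, 2iJ and 2iJ+B−A and 12.5 CPM in TSC. TSC lay below all mESC samples, whose intervals overlapped, although the log2 ratio of 2iJ to 2i−L, −0.14, had an interval of −0.26 to −0.01 that did not include 0. Its log2 ratio in TSC was −1.11 against 2iJ (interval −1.27 to −0.95), or 2.20-fold lower, and −1.22 against 2iJ+B−A (interval −1.38 to −1.07), or 2.39-fold lower. Exons of Ccne2 share 609 bases with Ints8 on the opposite strand, and opposite-strand counts were 26.1% to 29.8% of all counts there in mESCs and 49.5% in TSC. The number of such counts was 358, 400, 396 and 429, so it was the sense counts of Ccne2 that were lower in TSC.

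Per kilobase, the E-type sum was 54.3 for 2i−L, 41.3 for 2iJ, 34.1 for 2iJ+B−A and 51.4 for TSC, and Ccne1 supplied 84.1%, 81.0%, 75.0% and 93.1% of it. The ratio of Ccne1 to Ccne2 per length was 5.27 (interval 4.92 to 5.66), 4.26 (interval 3.96 to 4.58), 3.00 (interval 2.80 to 3.23) and 13.4 (interval 12.2 to 14.8). E-type cyclin RNA thus leaned furthest to Ccne1 in TSC and least in 2iJ+B−A, beyond counting error.

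Cdkn1a (ENSMUSG00000023067, NCBIM37 chr17:29227924-29237667, plus strand) encodes p21, a Cip/Kip inhibitor and a classical p53 target. Its level was 122.1 CPM for 2i−L, 120.7 for 2iJ, 93.6 for 2iJ+B−A and 85.5 for TSC. No difference was detectable between 2iJ and 2i−L, with a log2 ratio of −0.02 (interval −0.08 to 0.05). The level was lower in 2iJ+B−A than in 2iJ by a log2 ratio of −0.37 (interval −0.43 to −0.30) and lower in TSC than in 2iJ by −0.49 (interval −0.56 to −0.43). Cdkn1b (ENSMUSG00000003031, NCBIM37 chr6:134870419-134875531, plus strand), the gene of p27, was the most even of the 10, at 82.8, 77.4, 80.7 and 74.9 CPM. Across the 4 comparisons its log2 ratios ran from −0.11 to 0.06. The intervals for 2iJ+B−A against 2iJ (−0.01 to 0.14) and TSC against 2iJ (−0.12 to 0.03) included 0. Those for 2iJ against 2i−L (−0.17 to −0.02) and TSC against 2iJ+B−A (−0.18 to −0.03) did not.

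Per kilobase, Cdkn1a was 3.02 times as abundant as Cdkn1b for 2i−L, 3.19 times for 2iJ, 2.37 times for 2iJ+B−A and 2.34 times for TSC. The 2 genes summed to 73.1, 71.3, 59.8 and 54.9 CPM per kilobase. That sum leaves out another Cip/Kip gene, Cdkn1c, which is not among the 10. Cdkn1c stood at 10.2 CPM for 2i−L, 19.7 for 2iJ, 189.7 for 2iJ+B−A and 274.5 for TSC. In 2iJ+B−A and TSC its CPM exceeded that of both genes, so the sum does not show the course of the whole family. In 2iJ, Cdkn1a was the most abundant of the 10 genes per length with 54.3 CPM per kilobase, ahead of Ccnd3 with 45.7. Ccnd3 led in the other 3 samples with 60.4, 62.4 and 74.2 CPM per kilobase, although its counts are uncertain as described.

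Cdkn2a (ENSMUSG00000044303, NCBIM37 chr4:88920377-88940557, minus strand, 3 coding transcripts) carries the distal and proximal promoters printed above. It had 293 counts for 2i−L, 384 for 2iJ, 318 for 2iJ+B−A and 931 for TSC, or 8.81, 11.2, 8.46 and 26.5 CPM. TSC was clear of every mESC sample, and 2iJ was above 2i−L and 2iJ+B−A, whose intervals overlapped. The log2 ratio in TSC was 1.21 against 2iJ (interval 1.04 to 1.38), or 2.37-fold higher, and 1.59 against 2iJ+B−A (interval 1.41 to 1.77), or 3.13-fold higher. Among mESCs it was 0.33 for 2iJ against 2i−L (interval 0.12 to 0.54) and −0.38 for 2iJ+B−A against 2iJ (interval −0.59 to −0.17).

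Cdkn2b (ENSMUSG00000073802, NCBIM37 chr4:88952198-88956941, minus strand) encodes p15Ink4b, known as a TGFβ target. It had 83, 146, 144 and 235 counts, or 2.50 CPM for 2i−L, 4.25 for 2iJ, 3.83 for 2iJ+B−A and 6.69 for TSC. The lowest level was in 2i−L and the highest in TSC, and 2iJ and 2iJ+B−A overlapped. 2iJ exceeded 2i−L by a log2 ratio of 0.67 (interval 0.32 to 1.01), TSC exceeded 2iJ by 0.60 (interval 0.32 to 0.88) and TSC exceeded 2i−L by 1.26 (interval 0.95 to 1.58). With ALK5 inhibitor II and BMP4 added, the log2 ratio to 2iJ was −0.13 (interval −0.44 to 0.17), so no difference was detectable at this depth.

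Cdkn2c (ENSMUSG00000028551, NCBIM37 chr4:109333481-109339794, minus strand), the gene of p18Ink4c, was the lowest INK4 gene of the set in each sample, also per length. Only 40, 31, 77 and 73 counts were found, or 1.20 CPM for 2i−L, 0.903 for 2iJ, 2.05 for 2iJ+B−A and 2.08 for TSC. The 2 higher samples did not differ from each other beyond counting error, nor did the 2 lower ones. Against 2iJ, 2iJ+B−A had a log2 ratio of 0.86 (interval 0.42 to 1.29) and TSC one of 0.88 (interval 0.43 to 1.31). Both were under the 2-fold limit on this scale although the CPM ratios were 2.27 and 2.30.

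Together the 3 INK4 genes among the 10 came to 9.77, 12.9, 10.7 and 28.2 CPM per kilobase, with Cdkn2a giving 77.1%, 73.8%, 67.3% and 80.2%. Another INK4 gene, Cdkn2d, is outside the 10 and not in these sums. The ratio of Cdkn2a to Cdkn2b per length was 4.20 (interval 3.28 to 5.43), 3.13 (interval 2.58 to 3.82), 2.63 (interval 2.15 to 3.22) and 4.72 (interval 4.08 to 5.47). All 3 of the summed genes had their highest CPM in TSC, where for Cdkn2c the interval overlapped that of 2iJ+B−A.

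A gene was counted as different where its level differed by at least 2-fold on the log2 ratio scale. Between 2iJ and 2i−L, 0 of the 10 genes were higher and 0 lower by this rule, against 1.23% and 0.918% of all genes tested. The median log2 ratio of the 10 was −0.12, against 0.00 over all genes, and their median size was 0.30, against 0.16. For 2iJ+B−A against 2iJ, 1 gene, Ccnd2, was higher and 0 were lower, where 5.81% of all genes were higher and 3.17% lower. The median of the 10 was then −0.04, with a median size of 0.38 against 0.25 over all genes.

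For TSC against 2iJ, 1 of the 10 genes, Cdkn2a, was higher and 3, Ccnd1, Ccnd2 and Ccne2, were lower. Among all genes, 19.4% were higher and 17.6% lower in that comparison, and the median of the 10 was 0.23 with a median size of 0.79 against 0.70. For TSC against 2iJ+B−A the same 4 genes passed in the same directions, against 16.4% of all genes higher and 16.2% lower, and the median of the 10 was −0.05 with a median size of 0.81 against 0.62. The comparisons are not independent, since 2iJ serves in 3 of them and TSC and 2iJ+B−A in 2 each.

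**Figure D3:**
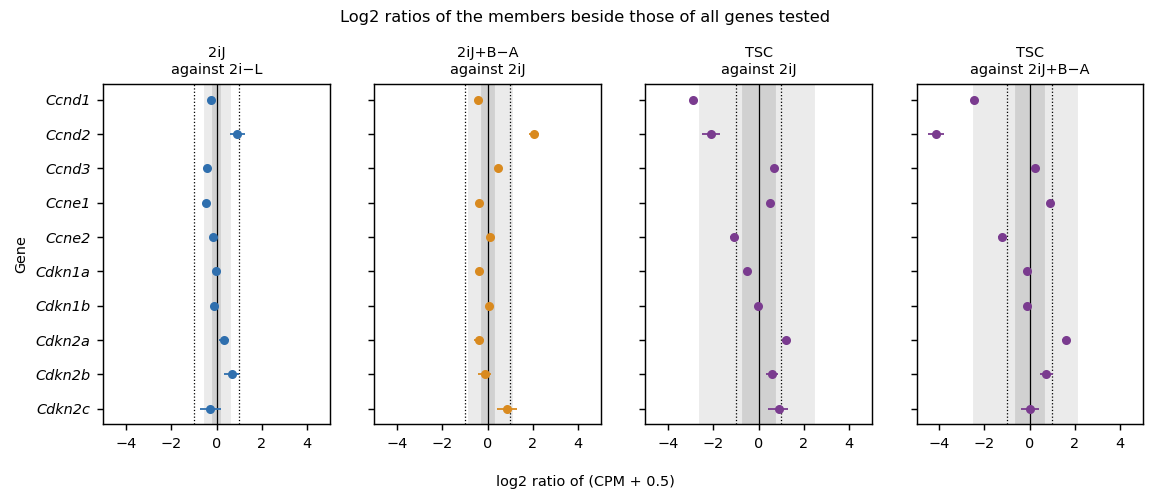
Log2 ratio of CPM plus 0.5 (horizontal axis) for each gene in the 4 comparisons, with 95% counting intervals; dark and light grey bands hold the middle 50% and 90% of all 14263 genes tested, and dotted lines mark 2-fold. Ccnd2 lies outside the light band in 2iJ+B−A against 2iJ (2.05) and in TSC against 2iJ+B−A (−4.15), and Ccnd1 in TSC against 2iJ (−2.90). In 2iJ against 2i−L, Ccnd2 (0.91) and Cdkn2b (0.67) lie outside it but short of 2-fold.

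The kinases that D-type and E-type cyclins activate were compared in the same way, and single values in parentheses from here on are log2 ratios. Cdk4 stood at 471.4, 471.4, 416.6 and 220.2 CPM in 2i−L, 2iJ, 2iJ+B−A and TSC, with a log2 ratio of −1.10 for TSC against 2iJ. Cdk6 stood at 19.1, 17.6, 11.0 and 0.541 CPM, the last from 19 counts, with a log2 ratio of −4.12. Cdk2 kept within 70.0 to 99.2 CPM. Both partners of D-type cyclins were thus lower in TSC than in 2iJ past 2-fold, and the partner of E-type cyclins was not. Among all genes, 17.6% were lower in that comparison.

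Of the CDK inhibitors outside the 10 genes, Cdkn1c, the gene of the third Cip/Kip protein p57, differed most. It had 10.2 CPM for 2i−L, 19.7 for 2iJ, 189.7 for 2iJ+B−A and 274.5 for TSC. Its log2 ratio was 0.92 for 2iJ against 2i−L, 3.24 for 2iJ+B−A against 2iJ and 3.77 for TSC against 2iJ. Unlike Ccnd2, it was thus high in both 2iJ+B−A and TSC. Cdkn2d, the gene of p19Ink4d, had 2.24 to 2.99 CPM and passed 2-fold in no comparison.

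Downstream of the cyclins, 0 of the 3 pocket protein genes and 0 of the 10 E2F and DP factor genes passed 2-fold between mESC samples. Among all genes, 1.23% were higher and 0.918% lower for 2iJ against 2i−L, and 5.81% and 3.17% for 2iJ+B−A against 2iJ. A count of 0 among 13 genes is near those shares. In TSC against 2iJ, Rbl2 (−1.04), E2f1 (−1.17) and E2f5 (−1.04) were lower, 3 of these 13 genes in all, near the 17.6% of all genes that were lower. Of the 13, 0 were higher, where 19.4% of all genes were. Among 6 genes of cyclin and inhibitor turnover, Skp2, which marks p27 for destruction (−1.41), and Cdc25a, a phosphatase that activates CDK2 (−1.10), were lower in TSC than in 2iJ. Fbxo4, a ubiquitin ligase gene, was higher (1.34). That made 1 of 6 higher and 2 of 6 lower, against 19.4% and 17.6% of all genes.

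For 2iJ against 2i−L, 0 of 13 S phase genes passed 2-fold, where 1.23% of all genes were higher and 0.918% lower. The list median was −0.12. For 2iJ+B−A against 2iJ, 0 of the 13 passed, where 5.81% of all genes were higher and 3.17% lower. The list median was then −0.15. In TSC against 2iJ, 7 were lower and 0 higher, where 17.6% of all genes were lower and 19.4% higher, with a median of −1.01. The largest differences were in the replicative helicase genes Mcm3 (−1.89), Mcm6 (−1.19) and Mcm5 (−1.17). The list was not uniform, since Tk1 (0.80) and Cdc6 (0.28) were above 2iJ, short of 2-fold, and Cdt1 was level (0.00). In TSC against 2iJ+B−A, 4 of the 13 were lower and 0 higher, where 16.2% of all genes were lower and 16.4% higher. The median was then −0.90. Of the 13 tested from the list of cyclins and mitotic genes of S, G2 and M phase, 0 passed 2-fold in TSC against 2iJ. Their median was −0.15, and 19.4% of all genes were higher and 17.6% lower in that comparison. Mki67 alone was higher in TSC than in 2iJ+B−A (1.12), where 16.4% of all genes were. How many cells were cycling was not measured.

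**Figure D4:**
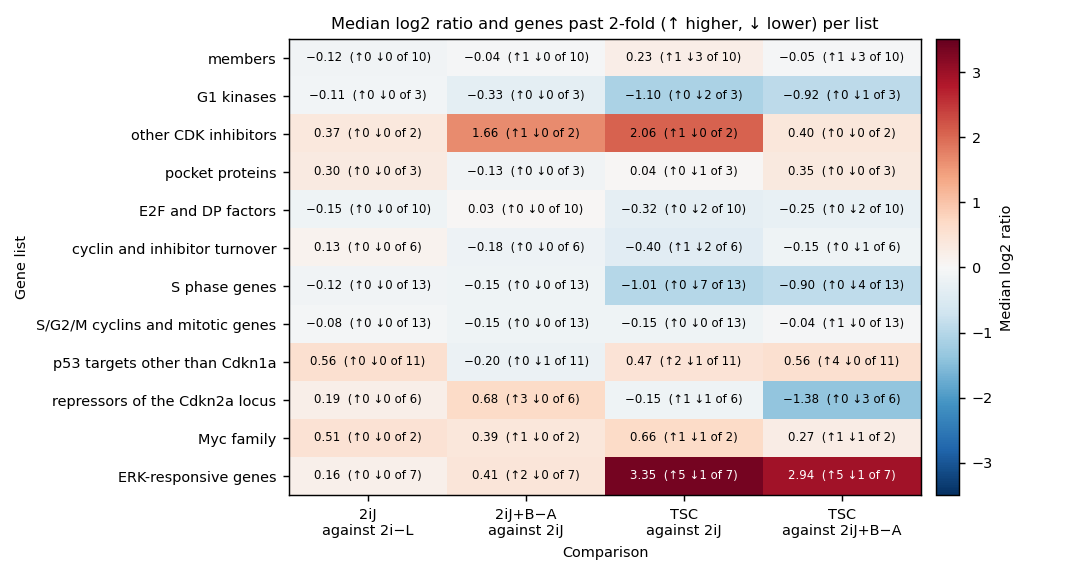
Median log2 ratio (colour and first number) for the 10 genes, called members, and 11 related gene lists (rows) in the 4 comparisons (columns), with the genes at least 2-fold higher (up arrow) or lower (down arrow) of those tested. S phase genes have a median of −1.01 and 7 of 13 lower in TSC against 2iJ, while mitotic genes have a median of −0.15 and none past 2-fold.

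Regulators of the inhibitors were also listed. Of 11 p53 targets other than Cdkn1a, 0 passed 2-fold for 2iJ against 2i−L, where 1.23% of all genes were higher and 0.918% lower. The median log2 ratio of the list was 0.56, led by Trp53inp1 (0.80), Perp (0.66) and Btg2 (0.63), whereas Cdkn1a had −0.02. Pmaip1, which encodes the cell death protein Noxa, was lower in 2iJ+B−A than in 2iJ (−1.39), 1 of the 11, where 3.17% of all genes were lower. In TSC against 2iJ, Perp (1.91) and Btg2 (1.55) were higher and Sesn2 (−1.02) was lower, no larger a share of the 11 than the 19.4% and 17.6% of all genes. The list median was 0.47, and Cdkn1a had −0.49.

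The 6 genes known to repress the Cdkn2a locus split between the samples. In 2iJ+B−A against 2iJ, Id1, a BMP target (3.44), Tbx2 (1.65) and Tbx3 (1.12) were higher, where 5.81% of all genes were, and the Polycomb genes Bmi1 (0.25), Cbx7 (−0.12) and Ezh2 (0.00) did not pass. In TSC, where Cdkn2a was highest, Tbx3 was 17.1 CPM against 113.4 in 2iJ and 246.7 in 2iJ+B−A, and its log2 ratio to 2iJ was −2.69. Id1 was higher in TSC than in 2iJ (1.55) and lower than in 2iJ+B−A (−1.89). Bmi1 (−0.62), Tbx2 (−0.24), Ezh2 (−0.05) and Cbx7 (−0.02) did not pass in TSC against 2iJ. In that comparison 1 of the 6 was thus higher and 1 lower, against 19.4% and 17.6% of all genes. Whether these genes had a part in the Cdkn2a level was not tested.

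Myc genes, which promote entry into S phase, and genes that respond to the kinase ERK, several of which encode its feedback inhibitors, were listed as well. Myc stood at 4.90, 8.10, 24.1 and 98.4 CPM in 2i−L, 2iJ, 2iJ+B−A and TSC, and Mycn at 96.0, 121.9, 73.1 and 26.2 CPM. For 2iJ against 2i−L, both with the MEK inhibitor present, 0 of 7 ERK-responsive genes passed 2-fold, where 1.23% of all genes were higher and 0.918% lower. Spry2 (1.32) and Spry4 (1.26) were higher in 2iJ+B−A than in 2iJ, where 5.81% of all genes were. Spry4 had only 6 counts in 2iJ and 42 in 2iJ+B−A. In TSC against 2iJ, 5 were higher, led by Egr1 (5.71), Etv4 (5.35) and Spry4 (4.84), and Etv5 was lower (−2.40), where 19.4% of all genes were higher and 17.6% lower. The list median in that comparison was 3.35.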

How the data were processed

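RNA-seq libraries from 4 samples, 1 per condition, were analysed. Poly-A RNA was made into strand-marking libraries and sequenced in pairs. The authors trimmed reads with TrimGalore (cutadapt), mapped them to NCBIM37 with STAR 2.4.2a, and deposited whole-number counts of read pairs per gene, not normalized, from pairs that map to 1 place. CASAVA 1.8.2 is also named in the submitters' processing notes. The annotation release is not given in the sources used here. The ComBat adjustment the study describes is not in these counts.

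The counts on the reverse strand were used. Read pairs on no gene were left out of library sizes (16.4% to 17.8% of each table). Between 6.72% and 7.01% of pairs mapped to several places. Symbols came from the GENCODE annotation of NCBIM37, which held 37205 of 37620 identifiers. CPM used TMM library sizes (edgeR 4.0.16, R 4.3.3). Log2 ratios had a pseudocount of 0.5 CPM over the 14263 genes that reached 1 CPM somewhere in the 4 samples, and a gene counted as different at 2-fold. Intervals are 95% Poisson for levels and 95% Clopper-Pearson for ratios. PCR copies are not independent molecules, so these cover counting error only. Exon length was the union of exons per gene. Transcripts were aligned to NCBIM37 with minimap2 2.31 to find second matches. The scripts were tested on simulated Poisson counts (Python 3.11.15). That test used no pseudocount and left out genes of low level, so it does not cover either. Alternatives were DESeq2 1.42.0 size factors, total counts, the unstranded counts, pseudocounts of 0.1 and 1 CPM, no filter, and a 1.5-fold limit.

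The 10 genes, the 11 related lists and the 4 marker lists were chosen by name with earlier results of these data known. From a list, at most the 3 genes with the largest log2 ratio in a comparison were named, and other genes named from a list were chosen after their values were seen. Tfap2c and Syna are listed as Tcfap2c and Gm52 in the annotation.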

Additional observations from a re-analysis of the deposited data

How the results depend on the processing

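The number of the 10 genes past the limit depended on the pseudocount and on the fold asked for. With a pseudocount of 0.1 CPM it went from 0 to 1 for 2iJ against 2i−L (Ccnd2) and from 1 to 2 for 2iJ+B−A against 2iJ (Cdkn2c added), and Cdkn2c also passed in TSC against 2iJ. With a 1.5-fold limit the number went from 0 to 2 for 2iJ against 2i−L and from 1 to 2 for 2iJ+B−A against 2iJ. It went from 4 to 7 for TSC against 2iJ and from 4 to 6 for TSC against 2iJ+B−A. Of these, 4 were higher and 3 lower against 2iJ, and 3 higher and 3 lower against 2iJ+B−A. At 2-fold, 1 was higher and 3 lower in each. Over all genes, the 306 genes of 2iJ against 2i−L became 652 with a pseudocount of 0.1 CPM and 181 with 1 CPM. At 1.5-fold the numbers over all genes were 1325, 2944, 8040 and 7449 for 2iJ against 2i−L, 2iJ+B−A against 2iJ, TSC against 2iJ and TSC against 2iJ+B−A, against 306, 1280, 5284 and 4647. A lower limit admits more genes by construction.

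Of 200 log2 ratios of the 10 genes recomputed under the alternatives, 194 stayed within their counting interval and 0 reversed a called direction. The largest shift was 0.49, and 0.09 without the pseudocount settings. One ratio near 0, Cdkn1b in TSC against 2iJ, changed sign. Other scalings shifted the median of all genes by at most 0.07. Under DESeq2 size factors, total counts, the unstranded counts and no filter, the number of the 10 genes past 2-fold was the main one in all 4 comparisons. No paired analysis was possible because each condition has 1 sample, and for the same reason no replicate could be left out. Depth limits Ccnd2 in TSC and Cdkn2c in each sample most, with 29 to 77 counts.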
